A study of Homo sapiens with 9 samples.

Results

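The genes described here carry symbols of proteins of the cytosolic ribosome, and not each need encode a protein of the mature ribosome. They were chosen by symbol: RPL or RPS with a number and, where present, an ending of A, X, L, AL or L1, together with RPLP0, RPLP1, RPLP2 and RPSA. The rule found 84 genes among the 14839 of the deposited table, 51 of the large (60S) subunit and 33 of the small (40S) subunit. Of these, 9 carry a symbol ending that can mark a second gene copy (L, AL, L1 or X). The rule itself uses no measured value.

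The measurements came from MP41, a human uveal melanoma line that carries a GNA11 mutation. One library came from the start of the course (0 h). The labels assign it to the control mimic, and whether its cells had met the mimic is not given in the sources used here. The other libraries came from cells that received 66 nM of a synthetic miR-16 mimic or of a control mimic (miR-CTR) with Lipofectamine RNAiMAX, a lipid carrier, and were harvested at 6, 12, 24 and 48 h. The 9 libraries of polyadenylated RNA thus hold 1 library per condition, all of 1 cell line, so that no difference between conditions can be tested and each is given as a value. Changes since 0 h combine transfection, time in culture and the mimic, which cannot be told apart. The table codes the times by number rather than in hours, and the codes were taken in ascending order as the hours of the labels. The libraries held 20253967 to 27368923 whole reads, recovered from the table. The melanocytic markers MITF, PMEL, MLANA, TYR, TYRP1, DCT, SOX10 and GPR143 were all present, between 11.53 and 17.88 on the log2 scale, and 5 of 8 markers of other cell types (PTPRC, PECAM1, EPCAM, KRT5 and RPE65) were not among the genes of the table. The other three ranged from 4.86 (RLBP1) to 8.86 (COL1A1).

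Ribosomal proteins join the ribosomal RNAs in the nucleolus, and the cell makes them in nearly equal numbers because each ribosome takes about one of each. Most of their mRNAs start with a cytosine followed by a run of pyrimidines, the 5′ terminal oligopyrimidine (TOP) motif, through which mTOR signalling and LARP1 set their translation and stability. Several members also act outside the ribosome: RPL5 and RPL11 bind MDM2 when ribosome assembly fails, RPSA serves as a laminin receptor, and RPS19 is mutated in Diamond-Blackfan anaemia.

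The transfected small RNA and the start sites of the members at both ends of the late ranking are shown first, because the results below return to them. The mature strand of miR-16, which RefSeq (GRCh38.p14) places on chromosome 13 at 50049027 to 50049048 (minus strand, MIR16-1) and on chromosome 3 at 160404754 to 160404775 (plus strand, MIR16-2), is printed with its seed, bases 2 to 8, in capitals.
hsa-miR-16-5p: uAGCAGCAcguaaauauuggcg

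RefSeq start sites (GRCh38.p14) were found for 67 members. Each line below gives 12 bases before the start and 15 from it, 5′ to 3′ on the strand of the gene, with the pyrimidine run that begins at a start cytosine in capitals. RPSA, RPL39 and RPL28 had high late values with miR-16, RPL36, RPL27A, RPLP2, RPS12 and RPL22L1 had low ones, and RPS27L and RPL26L1 are paralogs without such a run.
RPSA: cctgccgcctgtCTTTTCCgtgctacc
RPL39: ttccgccagcttCCCTCCTCTTCCTTT
RPL28: cccctcgccttcCTCTTTCCgtctcag
RPL36: cgcggcgccagcCCTTCCgccacggcc
RPL27A: gcgaaggccttcCTTTTTCgtctgggc
RPLP2: cgtcggcgccttCCTTTTCCTCCCTgt
RPS12: tgcggatgaggcCTCTTTCCCTgccgc
RPL22L1: ggccgtagcttcCTCTCTgctctcgcg
RPS27L: ttgatgccgagcgcagatcgcttgcag
RPL26L1: cttccaggggtcggcgaacgaaacgcg

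A start cytosine followed by at least 4 pyrimidines was present in 43 of the 67 members (64.2%), against 4.04% of 27305 RefSeq start sites. The members with the highest and the lowest late values both had it. The annotated RefSeq start of each gene was used, and which starts MP41 cells use was not tested. Some members counted as without the run, such as RPL10A and RPL9, have a pyrimidine run a few bases after the annotated start. The letters CCGGAAG, the core of the ETS family motif, were found on either strand in the 300 bases around the start of 23 members (34.3%) and of 10.7% of all promoters. The letters AAGATGGC, a YY1 motif, were found in the same way in 7 members (10.4%) and in 3.03% of all promoters. Both are descriptions of letters, not of binding. The 27305 start sites were not limited to the genes of the table.

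At 0 h the members were among the most abundant mRNAs. Their log2 levels at 0 h ran from 5.73 for RPS10L to 16.41 for RPL8, with a median of 13.57, against 9.15 for all genes. Of the 84 members, 75 were among the 1484 genes of highest mean expression, and 1 (RPS10L) was among the lowest 25% of genes. Together they are 0.566% of the genes of the table, and they held 5.41% of the reads of the 0 h library (95% Wilson interval within 0.01 percentage points, counting error only). The large subunit accounted for 3.49% and the small subunit for 1.92%.

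Levels between genes were compared as reads per kilobase of coding sequence at 0 h. RPL8 had the highest level, at 108399 reads per kilobase. RPL30 followed with 99279, RPL41, the shortest member, with 91821, and RPS18 with 87671. RPL37A (66358), RPL37 (57548), RPLP1 (54038), RPL19 (52321), RPL7 (50262) and RPL39 (49205) completed the highest 10, which held 24.8% of all member reads. RPL8, RPL30 and RPL7 are 3 of the 4 members on chromosome 8. Coding length leaves out the untranslated regions, which inflates the value of short genes, RPL41 with 78 coding bases the most.

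The lowest values per coding kilobase were those of RPL36A (903 reads), RPL26L1 (2251), RPL17 (2495), RPL39L (3359), RPL7L1 (5031), RPS10 (6088) and RPS26 (7532). RPL36A, RPL17 and RPS10 are the 3 members that GENCODE annotates with a readthrough gene over the same exons (RPL36A-HNRNPH2, RPL17-C18orf32 and RPS10-NUDT3). Reads that fall on both could have been dropped in counting, and their part in these low levels was not tested. In total, 1135 annotated pseudogenes are named after 76 of the members, 162 of them in the table. Members with many such copies, as RPL7 with 61 and RPSA with 74, share sequence with them and their counts are uncertain to that extent.

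The first comparison asked how the members as a whole differed between miR-16 and miR-CTR at the same time. The logFC is the log2 level with miR-16 minus that with miR-CTR. At 6 h the median of the 84 members was 0.02, with 43 above 0 (49.8% of all genes were above 0). At 12 h the median was 0.06, with 70 members above 0 (49.4% of all genes). At 24 h it was 0.12, again with 70 above 0 (49.6% of all genes), a normalized level 8.7% above that with miR-CTR at the median. At 48 h it was 0.06 with 50 above 0 (49.4% of all genes). The median of all genes was 0 at each time. The direction was thus shared by most members at 12 and 24 h and by fewer at 6 and 48 h, and the shifts were small.

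**Figure D1:**
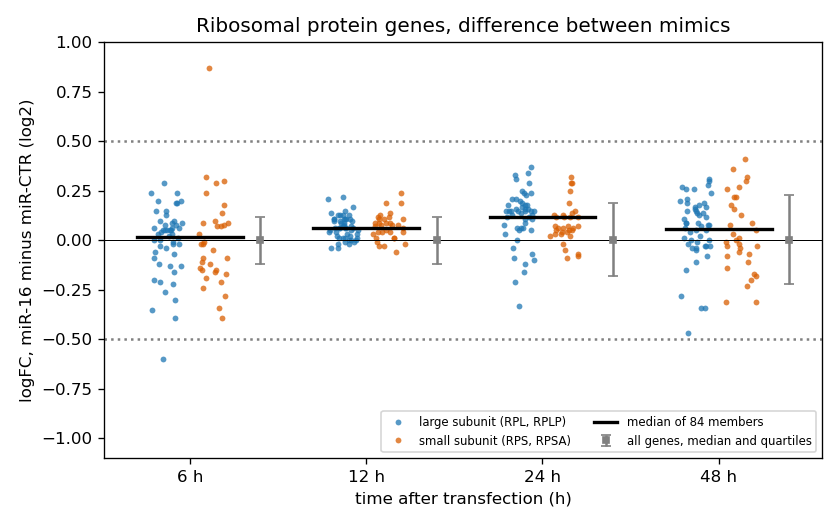
Each point is 1 ribosomal protein gene, plotted by its logFC (miR-16 minus miR-CTR, log2) at 6, 12, 24 and 48 h, with large subunit genes in blue and small subunit genes in orange. Black bars mark the median of the 84 genes, grey squares and whiskers the median and quartiles of all 14839 genes, and dotted lines a logFC of 0.5. The points lie closest together at 12 h (SD 0.06) and farthest apart at 6 h (SD 0.20).

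The spread among members changed more between times than the median did. In order of time, the SD of their logFC was 0.20, 0.06, 0.13 and 0.18. Without the 8 paralog symbols other than RPS4X it was 0.17, 0.06, 0.12 and 0.16. For the 1034 genes with a mean log2 level of at least 12, which include 74 of the members, it was 0.12, 0.14, 0.22 and 0.31. Members were thus more spread than those genes at 6 h and less so at the later times. Counting error was far smaller for most members, with a median standard error of 0.01 for the late logFC of a member. It was larger for members of few reads, at 6 h 0.276 for RPS10L and 0.115 for RPL36A.

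Differences were averaged over the early times (6 and 12 h) and the late times (24 and 48 h) and called where they passed 0.5. Early, 1 of the 84 members passed, against 3.48% of all genes. It was RPS10L, at 0.56, a symbol with as few as 45 reads in a library that RefSeq lists as a synonym of a pseudogene of RPS10. Late, none passed, against 13.5% of all genes. Of the 1034 genes with a mean log2 level of at least 12, 26 were above 0.5 and 31 below -0.5 late. Early, 4 of those genes were above 0.5 and 1 below -0.5. The late logFC of members ran from -0.40 to 0.33 with a median of 0.08, and 63 of 84 were above 0 (50.1% of all genes) and 19 below. Past 0.25 in size, 8 members were above and 1 (RPL22L1) below, against 38.7% of all genes past it in either direction. Of the 1034 genes of high level, 241 were past 0.25 in size.

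The ranking of the members was compared between times. At 6 h alone, 2 members passed 0.5 (6.72% of all genes): RPS10L at 0.87 and RPL22L1 at -0.60. Of the 1034 genes of high level, none was above 0.5 and 1 below -0.5 at 6 h. Members that were high at 6 h were mostly high at 48 h. Across the 84 members the Pearson correlation of the logFC at 6 h with that at 48 h was 0.80, and without RPS10L and RPL22L1 it was 0.78 over 82. Over all 14839 genes the same correlation was 0.30, and over the 1034 genes of high level it was 0.37. These are descriptions across genes that share libraries, and no library is shared between the times. For 6 and 12 h the members gave 0.60, against 0.20 over all genes and 0.31 over those of high level. For 6 and 24 h the values were 0.69, 0.27 and 0.46, and for 12 and 48 h 0.72, 0.40 and 0.62. The pairs with 24 h and a neighbouring time went the other way against genes of high level, with 0.43, 0.43 and 0.79 for 12 and 24 h and 0.67, 0.60 and 0.82 for 24 and 48 h.

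**Figure D2:**
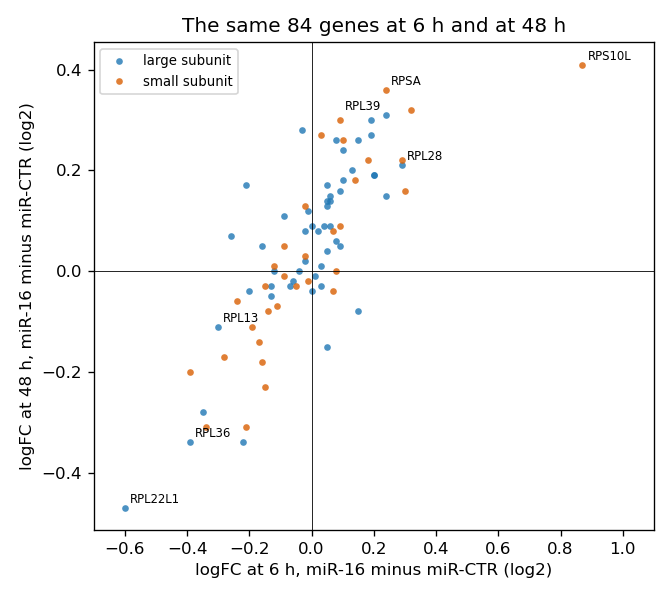
Each point is 1 of the 84 ribosomal protein genes, with its logFC at 6 h (miR-16 minus miR-CTR, log2) on the horizontal axis and at 48 h on the vertical axis. RPSA, RPL39 and RPL28 lie high at both times and RPL22L1, RPL36 and RPL13 low at both, and the correlation across genes was 0.80.

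At all 4 times, 36 members were above 0 (42.9%, against 17.7% of all genes) and 7 were below 0 (8.33%, against 16.7% of all genes). Among the 7 were RPL22L1, RPL36, RPL27A, RPLP2, RPL13 and RPS27A.

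The highest late value belonged to RPSA, the laminin receptor, at chr3:39406689-39412542. Its level was 13.65 at 0 h. The miR-CTR libraries had 13.64, 13.59, 13.63 and 13.54 in order of time. The miR-16 libraries had 13.88, 13.71, 13.92 and 13.90. Every miR-16 library was above every miR-CTR library, and the late logFC was 0.33 (counting SE 0.01). RPL39, a short protein of the exit tunnel of the large subunit, had the same late logFC. Its levels were 12.84, 12.93, 13.02 and 13.30 with miR-CTR. They were 13.08, 13.14, 13.36 and 13.61 with miR-16, higher at each time. Its late counting SE was 0.01.

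RPL23 was at 14.05, 14.07, 14.01 and 14.26 with miR-CTR and at 14.24, 14.24, 14.34 and 14.53 with miR-16, higher with miR-16 at each time. Its late logFC was 0.30, and like RPL5 and RPL11 its protein can bind MDM2. RPL26L1 had 0.27, RPL28 and RPL38 0.26 and RPS16 0.24. RPL28 was not higher with miR-16 at 12 h, where its logFC was -0.04.

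RPL22L1 was the lowest. It is the paralog of RPL22, an RNA-binding protein of the large subunit that also controls splicing, and RPL22L1 is known to increase where RPL22 is lost. Its gene lies at chr3:170864875-170870483 on the minus strand. At 0 h its level was 11.66. The miR-CTR libraries had 11.73, 11.64, 11.69 and 11.64. The miR-16 libraries had 11.13, 11.62, 11.36 and 11.17. The value with miR-16 was lower at 6, 24 and 48 h and differed by 0.02 at 12 h. The late logFC was -0.40 (counting SE 0.03).

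RPL22 itself was at 12.69 at 0 h, at 12.72, 12.73, 12.70 and 13.08 with miR-CTR and at 12.52, 12.78, 12.70 and 13.04 with miR-16. It was lower with miR-16 at 6 h and close to miR-CTR at the later times. The difference RPL22L1 minus RPL22 was -1.03 at 0 h and -1.44 and -1.87 at 48 h with miR-CTR and miR-16. These are counts of 1 gene against another without a length correction, so only their change between libraries is read.

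The other members at the low end were RPL36 (-0.22), RPL27A (-0.22), RPLP2 and RPS12 (both -0.20). RPL36 was at 13.21, 13.11, 13.00 and 13.34 with miR-CTR and at 12.82, 13.10, 12.90 and 13.00 with miR-16. RPLP2, an acidic protein of the stalk that recruits elongation factors, was at 13.49, 13.38, 13.31 and 13.65 with miR-CTR and at 13.14, 13.34, 13.19 and 13.37 with miR-16. In both genes the miR-16 library was lower at each time, by the most at 6 and 48 h. The partners of RPLP2 in the stalk did not share this, with a late logFC of 0.06 for RPLP1 and 0.07 for RPLP0.

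**Figure D3:**
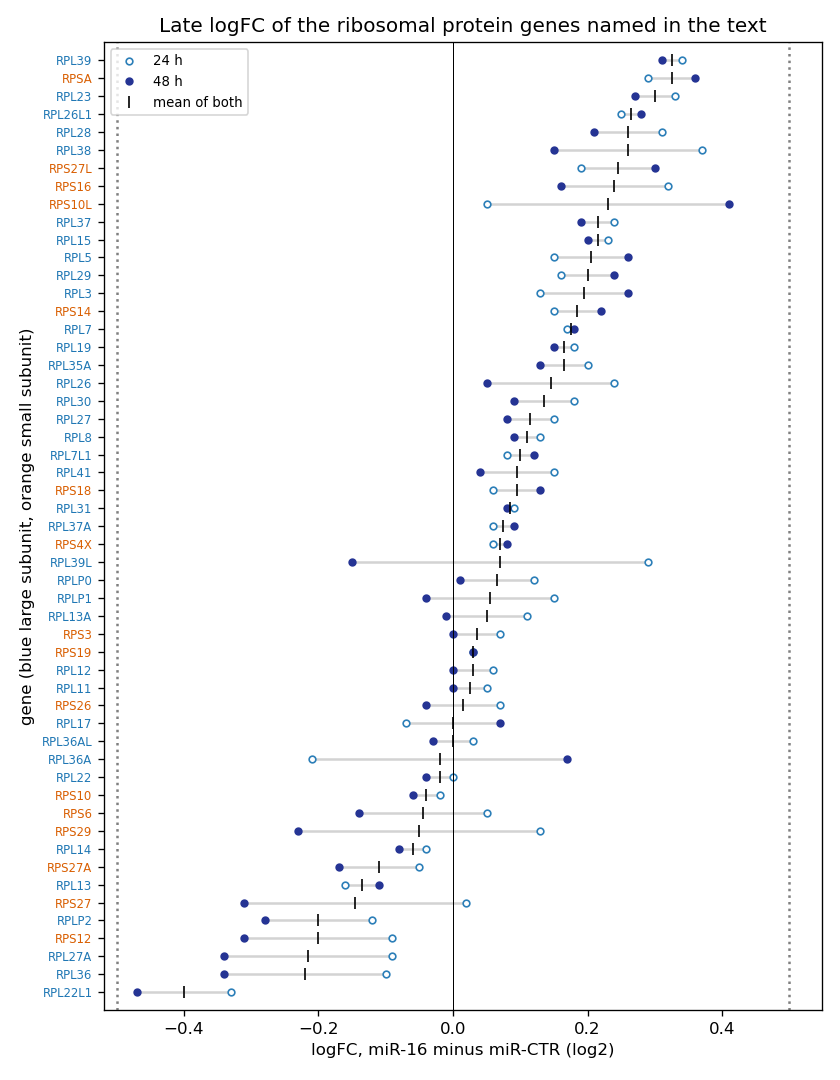
The ribosomal protein genes named in the text are ordered by late logFC (miR-16 minus miR-CTR, log2, horizontal axis), with open circles for 24 h, filled circles for 48 h and a tick for their mean. Gene names are blue for the large and orange for the small subunit, dotted lines mark 0.5 in either direction, and no mean lies beyond them.

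Among the members with known roles outside the ribosome, RPL5 had a late logFC of 0.21, RPL11 of 0.03 and RPL26 of 0.15. RPL11 was lower with miR-16 at 6 h, by -0.12. Among those mutated in anaemia or lost in a myelodysplastic syndrome, RPS19 had a late logFC of 0.03 and RPS14 of 0.19. RPS14 was at 13.74, 13.82, 13.94 and 13.94 with miR-CTR and at 14.03, 13.93, 14.09 and 14.16 with miR-16.

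RPS6, the substrate of S6 kinase, had -0.05 (above 0 after quantile normalization), RPS3, which also takes part in DNA repair, 0.04, and RPS18, a frequent reference gene, 0.10. RPS27A, made as a fusion with ubiquitin, had -0.11. RPL13A, used as a reference gene and part of a translational silencing complex, had 0.05. These genes differed between the mimics by less than the members at the ends of the ranking.

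The paralogs were set beside their partners. RPS27L, a copy of RPS27 at chr15:63125872-63158021, was at 11.49 at 0 h, at 11.41, 11.44, 11.52 and 11.56 with miR-CTR and at 11.50, 11.63, 11.71 and 11.86 with miR-16. RPS27 was at 13.44 at 0 h, at 13.60, 13.54, 13.38 and 13.98 with miR-CTR and at 13.26, 13.48, 13.40 and 13.67 with miR-16. The paralog was higher with miR-16 at each time, with a late logFC of 0.25, while that of RPS27 was -0.15. The late logFC of RPS27L was thus 0.39 above that of RPS27. The log2 level of RPS27L minus that of RPS27 went from -1.86 with miR-CTR to -1.69 with miR-16 at 24 h, and from -2.42 to -1.81 at 48 h. In the other direction, the late logFC of RPL22L1 was 0.38 below that of RPL22.

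RPL26L1 was 0.12 above RPL26 in late logFC, RPL36AL 0.02 above RPL36A and RPL7L1 0.08 below RPL7. RPL39L was 0.26 below RPL39, with values that differed between the late times (0.29 at 24 h and -0.15 at 48 h) and a counting SE of 0.06. RPS4X, whose symbol ends in X for its chromosome, had 0.07. At 0 h the paralog held 32.9% of the reads of the pair for RPL22L1, 20.6% for RPS27L, 13.5% for RPL26L1, 9.30% for RPL7L1, 6.40% for RPL39L and 94.5% for RPL36AL. RPL36A is one of the members with a readthrough gene.

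**Figure D4:**
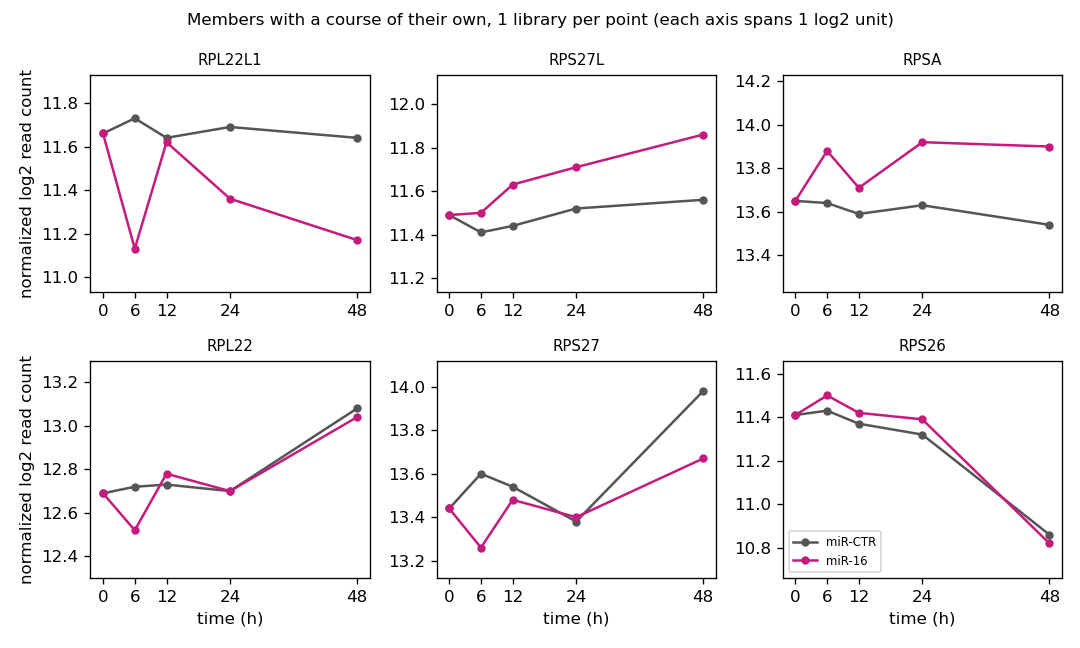
Normalized log2 read count (vertical axis, spanning 1 log2 unit in each panel) against time in h for RPL22L1, RPS27L and RPSA in the upper row and RPL22, RPS27 and RPS26 in the lower row, with miR-CTR in grey and miR-16 in magenta. Each point is 1 library and the 0 h library is shared. RPS26 is at 10.86 and 10.82 at 48 h in the courses of miR-CTR and miR-16.

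The subunits were then compared. The median late logFC was 0.10 for the 51 large subunit genes and 0.04 for the 33 small subunit genes, a difference of 0.07 on the log2 scale. With miR-16, 41 of 51 large and 22 of 33 small subunit genes were above 0 late, against 50.1% of all genes. The gap between the medians was 0.09 on the 24 h libraries alone, 0.08 on those of 48 h and 0.04 after quantile normalization. At 12 h the small subunit was ahead (0.08 against 0.06). Each group held members at both ends of the ranking, and the SD within a subunit was 0.14 for both.

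The second comparison followed each mimic from 0 h. With miR-CTR the median change of the members was 0.02 at 6, 12 and 24 h and 0.24 at 48 h. With miR-16 it was 0.03, 0.09, 0.14 and 0.28. At 12 h, 51 of 84 members were above their 0 h level with miR-CTR (49.9% of all genes) and 78 with miR-16 (49.0% of all genes). At 48 h, 76 were above it with miR-CTR (48.9% of all genes) and 76 with miR-16 (49.4% of all genes). Both courses share the 0 h library, so the values are given side by side only. The members were thus higher at 48 h than at 0 h under either mimic.

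The share of all reads held by the members followed the same course. With miR-CTR it was 5.49, 5.53, 5.55 and 6.32% at 6, 12, 24 and 48 h. With miR-16 it was 5.48, 5.83, 6.08 and 6.69%. The ratio of miR-16 to miR-CTR was 1.00, 1.05, 1.09 and 1.06 in order of time. The counting interval of a share was 0.01 percentage points to either side, so the shares at 12, 24 and 48 h differed by more than counting error. Without replicates the spread between cultures is not known. In bulk RNA, fewer cells of a kind and less RNA per cell cannot be told apart, and a share says nothing of the total RNA of a cell.

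**Figure D5:**
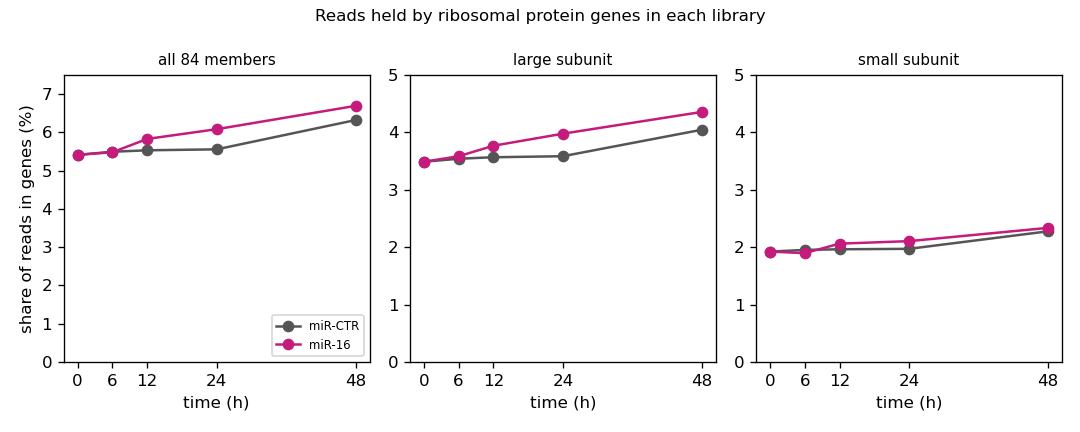
Share of the reads in genes (%, vertical axis from 0) held by all 84 ribosomal protein genes, by the 51 of the large and by the 33 of the small subunit, against time in h, with miR-CTR in grey and miR-16 in magenta and the 0 h library shared. The share of all members goes from 5.41% at 0 h to 6.32% with miR-CTR and 6.69% with miR-16 at 48 h.

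At 48 h, 4 members were past 0.5 from 0 h with miR-CTR (29.3% of all genes) and 8 with miR-16 (34.6% of all genes). RPL12, a protein of the stalk base, was higher by 0.67 under both mimics, going from 13.84 to 14.51. RPS29 was higher by 0.66 with miR-CTR and by 0.43 with miR-16, and RPS27 by 0.54 and 0.23. RPL39 (0.65), RPL5 (0.60), RPL3 (0.58), RPL15 and RPL29 (both 0.54) and RPL35A (0.53) passed 0.5 with miR-16.

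RPS26, a small subunit protein at the mRNA exit channel, went the other way. It was at 11.41 at 0 h, at 11.43, 11.37, 11.32 and 10.86 with miR-CTR and at 11.50, 11.42, 11.39 and 10.82 with miR-16. Its change at 48 h was -0.55 and -0.59, while its late logFC was 0.02. RPL7L1 was also lower at 48 h, by -0.49 with miR-CTR and -0.37 with miR-16. RPL22L1 was at -0.02 with miR-CTR and -0.49 with miR-16, and RPSA at -0.11 and 0.25. RPS26 has 30 annotated pseudogenes, so part of its count may belong to copies.

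Over the 9 libraries, 32 of the 84 members had a Pearson correlation above 0.9 with the mean of the other members, and the median was 0.87. The share of all genes above 0.9 is not given here, so the count does not show that members were more alike than other genes. RPL35A (0.99), RPL37A, RPL30, RPL31 and RPL27 (all 0.98) followed the mean most closely. RPS26 (-0.90), RPL7L1 (-0.75), RPL22L1 (-0.42), RPL36A (-0.31), RPL14 (-0.28), RPL26L1 (-0.15) and RPL17 (-0.08) were below 0. The 5 genes outside the set with the highest correlation with the members' mean were SMIM19 (0.99), RP11-51O6.1 (0.98), RPL13AP5 (0.98), FKBP11 (0.98) and UBE2Q2P6 (0.98). RPL13AP5 is a pseudogene of RPL13A and can share its reads. The mean of the members was highest in the libraries of 48 h, at 13.53 with miR-CTR and 13.58 with miR-16. In the other libraries it ran from 13.32 to 13.43. A gene that was higher at 48 h thus tends to score high on this measure.

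Matches to the seed of miR-16 were sought in the longest annotated 3′UTR of each member (GENCODE 29, GRCh38). A match was present in 10 of 82 annotated members (12.2%), against 28.8% of 11602 coding genes. The 3′UTRs of members were also shorter, with a median of 470 bases against 1390. RPL13 had the only 8-base match. The windows of RPL13, RPL28 and RPS14 are given because they hold the 8-base match or were among the members with a match and a high late logFC, with the bases that pair with the seed in capitals (with the A opposite its first base in RPL13).
RPL13: aataggtgaTGCTGCTAcctctgctg
RPL28: tgatgtggcTGCTGCTgctcagaag
RPS14: ctgttgggaTGCTGCTtttagcctt

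Counted in the 3′UTR, these begin at base 1195 in RPL13 (gene at chr16:89560657-89566828, plus strand), at base 2175 in RPL28 (gene at chr19:55385345-55403250, plus strand) and at base 802 in RPS14 (gene at chr5:150442635-150449756, minus strand). RPL13, with 3 matches, was at 13.53, 13.57, 13.54 and 13.88 with miR-CTR and at 13.23, 13.56, 13.38 and 13.77 with miR-16, lower at each time, with a late logFC of -0.14. RPL28, also with 3 matches, had 0.26. Overlapping matches were counted separately. The marked match of RPL28 overlaps another that begins within it, so that pair is not separate sites, and its remaining match begins after the printed window. The median late logFC was 0.09 for the 10 members with a match and 0.07 for the 72 without, and RPL22L1, the lowest member, had none in its 3′UTR. Which 3′ ends MP41 cells use was not tested.

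The start and promoter letters went with small differences between members. The median late logFC was 0.06 for the 43 with the TOP-like start and 0.09 for the 24 without it at the annotated start. It was 0.09 with and 0.06 without the ETS letters and 0.05 with and 0.07 without the YY1 letters. The median change at 48 h with miR-CTR was 0.26 with the TOP-like start and 0.24 without it.

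The last comparison set the members beside the rest of the translation machinery. The counts below are read against 50.1% of all genes above 0 and 13.5% past 0.5 in size over the late times. Of ribosomal components outside the symbol rule, the late logFC was 0.11 for FAU and 0.19 for RACK1 (listed as GNB2L1). Of 20 elongation factors and other TOP mRNAs, 14 were above 0 late with a median of 0.05. PABPC1, the poly(A)-binding protein and a TOP mRNA, was the 1 past 0.5, at 0.58, and PABPC4 was at -0.42. EEF1A1 had 0.04 and EEF2 0.12.

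Of 57 ribosome biogenesis factors, 38 were above 0 late with a median of 0.10, none was past 0.5 and 2 were past -0.5. These were NMD3, the export adaptor of the large subunit, at -0.80, and MDN1, an ATPase of large subunit maturation, at -0.64. The course since 0 h set this list apart from the members. At 48 h its median change was -0.59 with miR-CTR and -0.49 with miR-16, with 53 and 54 of 57 below 0. Of all 14839 genes, 7437 with miR-CTR and 7416 with miR-16 were below 0 at 48 h. Of the 84 members, 76 were above 0 under either mimic (48.9% and 49.4% of all genes). RNA polymerase I and its factors were similar to the biogenesis factors, with a median change of -0.39 and -0.33 and 17 and 15 of 20 below 0. Their late logFC had a median of 0.08.

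The 77 mitochondrial ribosomal protein genes had a median late logFC of 0.00, with 37 above and 37 below 0 and 3 past 0.5 in size. Their median change at 48 h was -0.22 under both mimics, with 59 of 77 below 0 with miR-CTR and 58 with miR-16. Of all 14839 genes, 7437 and 7416 were below 0. The 13 snoRNA host genes of the TOP class had a median late logFC of 0.09, with 11 above 0, and ranged from -0.47 (SNHG12) to 0.50 (SNHG3, which did not exceed the limit). The 16 genes of ribosome quality control and ribosome-associated factors, RACK1 again among them, had a median of -0.02, with EIF5B, the subunit-joining GTPase, at -0.59.

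Among 19 regulators of ribosomal protein synthesis, 10 were above 0 late and 1 passed 0.5, namely MYC at 0.59, a transcriptional activator of ribosome genes. EIF4E, the cap-binding protein, was at -0.42, RPS6KB1, the S6 kinase, at -0.46 and RHEB, the activator of mTOR, at -0.32. MDM2 was at 0.36 and LARP1 at -0.03. Across all these lists and the mitochondrial set, 8 of 224 genes (3.57%) were past 0.5 in size late, against 13.5% of all genes. These shares were not matched for expression level. Of the 1034 genes with a mean log2 level of at least 12, 26 were above 0.5 and 31 below -0.5 late.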

How the data were processed

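Polyadenylated RNA of 9 MP41 libraries was sequenced. Per the labels (the submitters' processing notes), FastQC, STAR 2.4.0a, featureCounts and Subread 1.5.0-p3 were used with hg38 (GRCh38). The annotation, strand setting and normalization method are not given in the sources used here. The deposited table holds values that the authors normalized and put on a log2 scale with 2 decimals, for 14839 genes. It names times T0, T1, T2, T4 and T5, taken in ascending order as 0, 6, 12, 24 and 48 h.

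Values were turned back by 2 to the power of the value minus 1. Low values (log2 up to 4.5) were whole multiples of 1 step per library (100% within 0.1 of a whole number), which gave 20253967 to 27368923 whole reads per library. Rounding to 2 decimals makes reads of abundant genes approximate. Counting standard errors and 95% Wilson intervals cover counting error only. The logFC is miR-16 minus miR-CTR at the same time, called past 0.5, averaged over 6 and 12 h (early) and over 24 and 48 h (late). With 1 library per condition no test was made. The calculation was checked on simulated data.

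The members, the gene lists and the thresholds were chosen with earlier results of these data known. Named were members past 0.5, the 5 highest and 5 lowest late and 3 highest and 3 lowest early logFC outside the lowest 25% of genes by expression, the 10 highest levels per coding length, the paralog symbols, members with known further roles, and the 5 most similar other genes. RPL12, RPS29, RPS26, RPL13, RPL28, RPL38, RPS16, RPL3, RPL15, RPL29, RPL35A, RPL31, RPL27, RPL14, RPL36A, RPL17 and RPS10 were named after their values were seen. RPL9 and RPL10A were also named outside the rule, for the letters at their start sites. GENCODE 29 gave coding lengths, 3′UTRs and positions for 82 members, and RefSeq (GRCh38.p14) the miRNA and start sites. Some genes that the rule would name are not reported here. Python 3.11.15, pandas 2.3.3, numpy 2.4.6 and scipy 1.17.1 were used. Alternatives were other scalings, thresholds, pseudocounts, references, member sets and single times.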

Additional observations from a re-analysis of the deposited data

Results flagged for a closer look

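RPL14, a protein of the large subunit, was higher with miR-16 at both early times (logFC 0.15 at 6 h and 0.01 at 12 h) and lower at both late times (-0.04 at 24 h and -0.08 at 48 h). Its late minus its early logFC was -0.14. The difference was not tested, since each condition has 1 library, and the value at 12 h was within its counting error. RPL14 was the 1 member of 84 with both early times on one side of 0 and both late times on the other. Other members had early and late means of opposite sign, such as RPL26 (-0.08 early and 0.15 late).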

How the results depend on the processing

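Under quantile normalization, scaling to all recovered reads, scaling to reads outside the ribosomal protein genes and centring on the median gene, the median logFC of the members was 0.032 to 0.055 early (0.045 as reported) and 0.079 to 0.098 late (0.077 as reported). With single times in place of the means, the early median was 0.015 at 6 h and the late median 0.120 at 24 h. Against the 0 h library in place of miR-CTR, the late median was 0.205, the count of members past 0.5 late was 1 and the gap between the large and small subunit was 0.020 (0.065 as reported, 0.090 at 24 h alone and 0.042 after quantile normalization). The early count of 1 became 2 at 6 h alone and with a threshold of 0.25, and 0 at 12 h alone, with a 1.5-fold threshold, with a pseudocount of 10, and without the members among the lowest 25% of genes or the paralog symbols, which leave out RPS10L. The late count of 0 became 9 with a threshold of 0.25. The late median change since 0 h, 0.13 with miR-CTR and 0.205 with miR-16, was 0.020 and 0.140 at 24 h alone, 0.240 and 0.280 at 48 h alone, and 0.097 and 0.172 after quantile normalization. The share of reads at 48 h with miR-16, 6.69%, was 6.50% after quantile normalization and 6.57% without the paralog symbols. Of the 38 members named by the rule, RPS6 alone changed the sign of its late logFC under the 4 other scalings and the pseudocount of 10 (after quantile normalization). Single times were not part of that count, and 1 late time differed in sign from the mean in RPL39L (-0.15 at 48 h) and RPS27 (0.02 at 24 h), among others. Beyond the settings whose construction shows it, the cause was not tested. With 1 library per condition, a shift of the size of the medians here cannot be set against the spread between cultures.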
